A study of Drosophila melanogaster with 17 samples.

Results

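Small heat shock proteins are chaperones that share an alpha-crystallin domain, and 8 Drosophila genes that carry this name or belong to the family by position or sequence were followed here across 8 groups of tissue. The 8 were Hsp22, Hsp23, Hsp26, Hsp27, Hsp67Ba, Hsp67Bb, Hsp67Bc and l(2)efl, taken by gene symbol from the 15080 entries of each count table, and all 8 were found. Because Hsp22 and Hsp67Bb share nearly all their reads, the 8 rows were treated as 7 loci wherever members were counted.

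Small heat shock proteins bind unfolding proteins without using ATP and hold them until chaperones of the Hsp70 class, with their Hsp40 and nucleotide exchange partners, refold them or pass them on for degradation. In the fly their genes are switched on by heat through heat shock factor, and several also respond to FOXO, to JNK signalling and to the moulting hormone ecdysone. They have been studied in fly ageing, where extra Hsp22 or other members can lengthen life and where their transcripts are used as stress and ageing reporters. Hsp22 acts in the mitochondrial matrix, Hsp23 and Hsp26 in the cytosol and Hsp27 mainly in the nucleus. Hsp67Bc works with starvin, the fly BAG3 relative, in clearing misfolded proteins. The l(2)efl gene (lethal (2) essential for life) encodes a relative of vertebrate alpha-crystallins. Hsp67Bb was named for its place in the gene cluster and encodes a rhodanese-like protein that has no alpha-crystallin domain.

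The study sequenced poly-A RNA from dissected adult fat body, midgut and whole gut of Drosophila melanogaster in 17 libraries. Fat body, the fly's organ of fat storage and humoral immunity, came from untreated flies aged 5 days (young, 2 libraries), untreated flies aged 50 days (old, 3 libraries) and flies aged 5 days with RNA interference against Lam, the lamin-B gene (Lam-RNAi, 2 libraries). Midgut, the digestive and absorptive part of the intestine, was sampled in the same 3 conditions with 2 libraries each. Whole gut came from untreated flies aged 5 and 40 days with 2 libraries each, so its old group is younger than the old midgut and fat body groups. The series text calls young controls wildtype and gives no RNAi control, so in the Lam-RNAi groups the loss of Lam and the genetic background of the transgenes cannot be told apart. The labels give no sex, strain, driver or tissue of RNAi expression, and do not say whether each replicate was a separate set of flies, so p-values measure the spread between these libraries, which may be technical.

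The libraries held 31637135 to 78289614 counted reads and 10383 to 12670 loci with at least 1 read. Levels below are in CPM, read counts scaled by the library total, as each library's value or as mean ± SD. A count of 0 allows a level of up to 3 counts (95% confidence, counting error only), which is 0.0383 to 0.0948 CPM. Fold changes are log2 values from edgeR's quasi-likelihood fit, whose scaling also takes account of library composition, and a ratio of CPM can therefore be another number. A gene was called changed at a Benjamini-Hochberg adjusted p below 0.05 over all genes tested. Lam itself changed by -1.12 (SE 0.138, adjusted p = 0.00145) in Lam-RNAi fat body and by -0.11 (SE 0.0653, adjusted p = 0.173) in Lam-RNAi midgut, where it was not called. Midgut markers summed to 33980 to 56750 CPM in midgut and 216.4 to 645.9 CPM in fat body, and fat body markers to 50030 to 153200 and 1426 to 7561 CPM. The fat body libraries also held 27520 to 112600 CPM of oenocyte and 5582 to 13270 CPM of muscle markers, and ovary and eggshell markers reached 247.3 CPM there. In such bulk samples fewer cells of a type and less RNA per cell cannot be told apart.

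Of the members, 7 sit side by side on chromosome arm 3L, in band 67B. In coordinates of the deposited tables, whose build is not given in the sources used here, the cluster runs from 9364610 to 9378384 and spans 13775 bases. It holds 8 entries, the 7 members and CG4461, another alpha-crystallin gene. Hsp67Bc lies at its left end (9364610 to 9365583, minus strand), followed by Hsp67Bb (9365821 to 9368064, plus), Hsp22 (9366030 to 9368064, plus), CG4461 (9368529 to 9369393, plus), Hsp26 (9369517 to 9370527, minus), Hsp67Ba (9370901 to 9372634, minus), Hsp23 (9374983 to 9375867, plus) and Hsp27 (9377164 to 9378384, plus). The eighth gene, l(2)efl, is on 2R (19572173 to 19573063, minus strand). In the release 6 annotation Hsp23, Hsp26, Hsp27, Hsp67Ba and Hsp67Bc have a single exon in every transcript, and l(2)efl has 3. Their proteins are short, with 174 residues in Hsp22, 186 in Hsp23, 187 in l(2)efl, 199 in Hsp67Bc, 208 in Hsp26 and 213 in Hsp27, against 445 in Hsp67Ba and 111 in Hsp67Bb.

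The Hsp22 and Hsp67Bb rows cannot be read as separate genes. In the annotation 1900 exon bases belong to both, 0 to Hsp22 alone and 209 to Hsp67Bb alone, since a transcript can carry both reading frames. The counts of the rows differed by 0 to 8 reads in a library, at most 1.03% of the Hsp67Bb count, in the library Lam-RNAi fat body replicate 2. Values printed for Hsp22 therefore stand for the shared transcript region, and no level can be given to Hsp67Bb alone.

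Each member had its own order of the 8 groups. Hsp22 was highest in old fat body (331.6 ± 102.6 CPM, n = 3) and lowest in Lam-RNAi fat body (10.6 ± 0.884 CPM, n = 2), a 31.28-fold range of group means. Between these came old whole gut (229.8 CPM), young fat body (158.1), young midgut (82.37), young whole gut (74.66), Lam-RNAi midgut (38.7) and old midgut (37.81). Libraries of neighbouring groups in this order overlapped in 2 of 7 steps, the top one (old fat body and old whole gut) and that between the Lam-RNAi and old midgut.

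Hsp23, Hsp26, Hsp27, Hsp67Ba and Hsp67Bc were all highest in old whole gut. The order of Hsp26 below it was young midgut (256.4 CPM), young whole gut (140.9), Lam-RNAi midgut (122.4), old midgut (111.8), young fat body (69.05), old fat body (67.11) and Lam-RNAi fat body (37.67). In that series the young and old fat body overlapped, and the other 6 steps did not. Hsp27 ran from 261.1 CPM in old whole gut through 148.5, 97.51, 74.51 and 74.38 in young midgut, young whole gut, Lam-RNAi midgut and old midgut to 29.65, 26.61 and 20.35 in Lam-RNAi, young and old fat body. Its every gut group lay above its every fat body group, and Lam-RNAi overlapped old midgut and Lam-RNAi overlapped young fat body.

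Hsp23 fell from 311.7 CPM in old whole gut to 89.09 in old fat body, 52.52 in young midgut, 40.96 in young fat body, 38.6 in young whole gut, 25.27 in old midgut, 21.57 in Lam-RNAi midgut and 18.03 in Lam-RNAi fat body. Libraries overlapped between old fat body and young midgut and between young fat body and young whole gut. Hsp67Bc had the widest range, 73.77-fold, with 28.8 and 13.54 CPM in old and young whole gut and 4.125 in young midgut. Its remaining groups were low, at 1.165 in Lam-RNAi midgut, 1.126 in old midgut, 0.963 in old fat body, 0.433 in Lam-RNAi fat body and 0.390 in young fat body, with overlap at 3 steps among them.

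Hsp67Ba was low in every group. Its means were 1.547 CPM in old whole gut, 0.952 in old fat body, 0.616 in Lam-RNAi fat body, 0.453 in old midgut, 0.396 in Lam-RNAi midgut and 0.335, 0.328 and 0.327 in young whole gut, young midgut and young fat body, with overlap at 4 of 7 steps. The narrowest range was that of l(2)efl, 2.501-fold, and it had the opposite end on top. Young midgut led with 140.6 CPM, ahead of young whole gut (127.9), old fat body (117.5), young fat body (105.3), old whole gut (97.86), Lam-RNAi midgut (87.82), Lam-RNAi fat body (86.56) and old midgut (56.21), and 3 of these 7 steps overlapped.

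**Figure D1:**
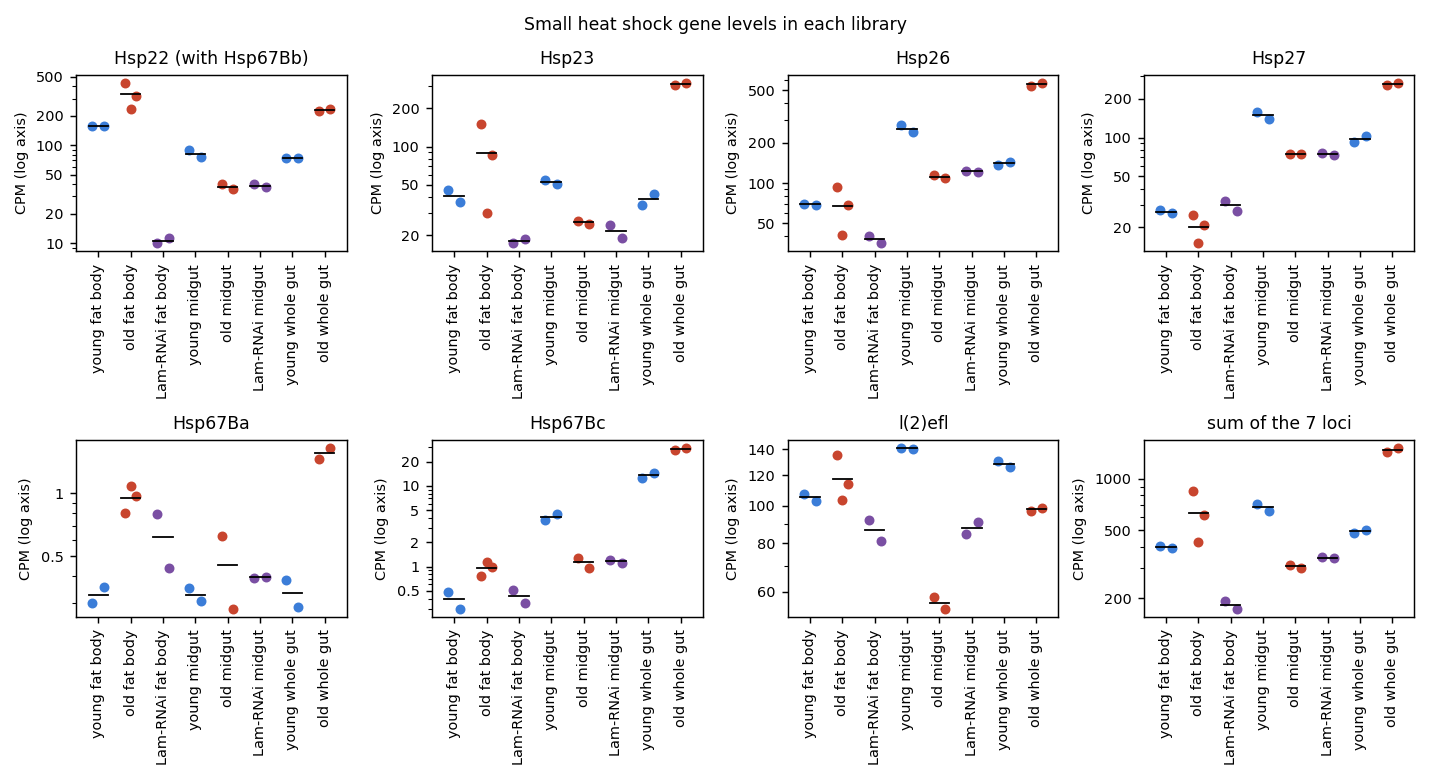
CPM of the 7 loci and of their sum (log axes, 1 panel each) in every library of the 8 groups; points are libraries and black bars are group means. Old whole gut lies on top for Hsp23, Hsp26, Hsp27, Hsp67Ba, Hsp67Bc and the sum, Lam-RNAi fat body lies at the bottom for Hsp22, Hsp23 and Hsp26, and the 3 old fat body libraries spread from 233.7 to 438.3 CPM of Hsp22.

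Corrected for length, as CPM per kilobase of annotated exon, the members also differed among themselves. In young midgut Hsp26 was at 253.8 and l(2)efl at 189.8 CPM per kilobase, ahead of Hsp27 (90.99), Hsp23 (59.41), Hsp22 (43.35), Hsp67Bc (4.179) and Hsp67Ba (0.189). In young fat body l(2)efl was first (142.1), and Hsp22 (83.22), Hsp26 (68.36), Hsp23 (46.34) and Hsp27 (16.3) followed. The level of Hsp22 depends on which transcript is meant, since the shortest one would give 163.3 CPM per kilobase in young fat body and 85.09 in young midgut. That of Hsp27 is likely understated, since its counted entry spans 1221 bases and its annotated exon 1632. Its shortest transcript would give 21.81 CPM per kilobase in young fat body and 121.7 in young midgut. In old whole gut Hsp26 (546.6) and Hsp23 (352.6) led.

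Summed over the 7 loci, the fat body libraries held 407.2 and 394.3 CPM when young, 844.2, 425.0 and 613.2 when old, and 192.9 and 174.2 with Lam RNAi. The midgut libraries summed to 716.7 and 652.9 CPM when young, 315.0 and 299.1 when old and 348.4 and 344.7 with Lam RNAi. Whole gut went from 482.6 and 504.2 CPM at 5 days to 1445 and 1520 CPM at 40 days. Only the old fat body libraries were spread widely, and in each tissue series the groups did not overlap.

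The make-up of that sum differed between tissues more than between midgut conditions. In fat body Hsp22 took 38.5 to 40.4% of the family's reads when young, 51.9 to 55.0% when old and 5.17 to 6.44% with Lam RNAi. In the 6 midgut libraries its share was 10.9 to 12.8%, and that of Hsp26 35.2 to 37.9%, in all 3 conditions. In whole gut the share of Hsp22 was 14.8 to 15.5% at both ages, Hsp23 went from 7.17 and 8.44% to 21.1 and 21.0%, and l(2)efl from 27.0 and 24.9% to 6.73 and 6.48%. These shares are of reads and are not corrected for gene length.

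**Figure D2:**
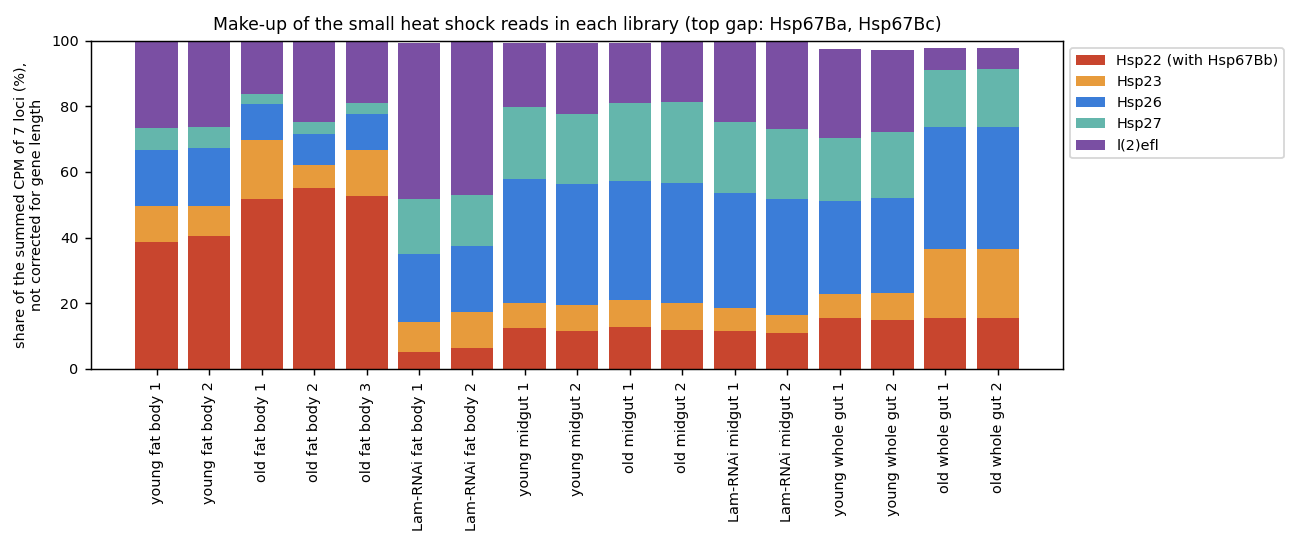
Share of the summed CPM of the 7 loci (percent, not corrected for length) taken by each of the 5 most abundant loci in every library. The Hsp22 share is 51.9 to 55.0% in old fat body and 5.17 to 6.44% in Lam-RNAi fat body, and the 6 midgut bars look alike.

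Old against young fat body asks what changed in the organ between 5 and 50 days. Hsp22 rose about 2-fold, and Hsp67Ba, at a far lower level, rose as well. The other 5 loci were not called, although the estimates of Hsp23 and Hsp67Bc were as large. With 2 of 7 loci higher and 0 lower, the members stood beside 38.1% of all genes called, 19.1% higher and 19% lower, and their median log2 fold change was 0.977 against 0.0198 for all genes.

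The young fat body libraries held 156.9 and 159.3 CPM of Hsp22, the old ones 438.3, 233.7 and 322.7 CPM. All old libraries lay above both young ones, with old replicate 1 highest. The log2 fold change was 0.98 (SE 0.231, adjusted p = 0.0175), 1.969-fold. The call rests on few libraries: it was lost without young replicate 1 (adjusted p = 0.108), young replicate 2 (adjusted p = 0.104) or old replicate 3 (adjusted p = 0.0515). For Hsp67Ba the young libraries held 0.2996 and 0.3547 CPM and the old ones 0.7993, 1.086 and 0.9717 CPM. It rose by a log2 fold change of 1.44 (SE 0.410, adjusted p = 0.0332), a call that was lost when any library other than old replicate 1 was left out (adjusted p 0.0528 to 0.142).

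Hsp23 was the most uneven member in old fat body. It held 45.27 and 36.66 CPM in the young libraries and 151.5, 30.08 and 85.69 CPM in the old ones, so old replicate 2 lay below both young libraries and the groups overlapped. The log2 fold change of 1.02 (SE 0.570, adjusted p = 0.197) was not called, and without old replicate 2 it was 1.43 (adjusted p = 0.0049). Hsp26 had the same order of the old libraries, at 92.76, 40.54 and 68.02 CPM around the young 69.17 and 68.92, and a log2 fold change of -0.13 (adjusted p = 0.735). Hsp27, at 27.44 and 25.77 CPM when young, was below that in each old library (25.17, 15.09 and 20.78 CPM), with -0.48 (SE 0.195, adjusted p = 0.0968), and it was called without old replicate 1 (-0.64, adjusted p = 0.0091).

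For Hsp22, Hsp23, Hsp26, Hsp27 and l(2)efl old replicate 1 was the highest and replicate 2 the lowest of the old libraries, and for Hsp67Ba and Hsp67Bc the order was the reverse. The order of the first 5 held for midgut markers (645.9, 299.7 and 450.7 CPM in replicates 1, 2 and 3), and the reverse order for muscle markers (5582, 8278 and 7074 CPM), hemocyte markers (572.8, 1403 and 981.7 CPM) and ovary and eggshell markers (78.85, 247.3 and 188.6 CPM). Their part in the spread was not tested. Muscle markers were at 13260 and 13270 CPM and oenocyte markers at 111800 and 112600 CPM in the young fat body, against at most 8278 and 45790 CPM in the old, and their part in the age differences was not tested either.

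Hsp67Bc did not overlap between the groups, with 0.4793 and 0.3015 CPM in the young libraries and 0.7561, 1.139 and 0.9938 CPM in the old. It narrowly missed the threshold with 1.24 (SE 0.414, adjusted p = 0.0542) and passed without old replicate 1 (1.40, adjusted p = 0.0316). The gene l(2)efl was at 107.6 and 102.9 CPM and at 134.9, 103.4 and 114.1 CPM, overlapping, with a log2 fold change of 0.07 (95% interval -0.213 to 0.355).

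The Lam-RNAi fat body asks whether a loss of Lam in young flies changes the organ. Hsp22 fell 13.22-fold, and no other member was called in either direction. Of all genes 35.7% were called, 18.5% higher and 17.1% lower, and the members' median of -0.11 was near the -0.00939 of all genes. The fold change of Hsp22 lay at the 0.331th percentile of all 10866 genes tested.

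Hsp22 was at 9.97 and 11.22 CPM (465 and 768 reads) in Lam-RNAi against 156.9 and 159.3 CPM in young fat body. The lower group lay far below the other, and below every other library of the series. This is a log2 fold change of -3.72 with a 95% interval of -4.385 to -3.065 (SE 0.276, adjusted p = 0.000202). In each of 11 alternative fits it kept its direction and its call, with values from -3.90 to -3.68.

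Hsp23 and Hsp26 also had lower values in Lam-RNAi fat body without being called. Hsp23 was at 17.32 and 18.74 CPM against 45.27 and 36.66 CPM (log2 fold change -1.01, SE 0.615, adjusted p = 0.243). Hsp26 was at 40.07 and 35.27 CPM against 69.17 and 68.92 CPM (-0.70, SE 0.321, adjusted p = 0.134). For both the groups did not overlap, and the spread of the fit included the uneven old libraries. When only the 4 Lam-RNAi and young libraries were fitted, Hsp23 (adjusted p = 1.25e-05), Hsp26 (adjusted p = 1.75e-05) and Hsp27 (0.34, adjusted p = 0.0126) were called too. That fit called 6603 genes, 51% of them higher, against 3875 (35.7% of those tested) with all 7 fat body libraries. The added calls were therefore not particular to the members.

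Hsp27, at 32.35 and 26.96 CPM, was at 0.33 (SE 0.215, adjusted p = 0.27), and l(2)efl, at 91.89 and 81.22 CPM, was at -0.11 (95% interval -0.419 to 0.202). Hsp67Ba was at 0.7933 and 0.4383 CPM (1.06, SE 0.439, adjusted p = 0.104) and Hsp67Bc at 0.5146 and 0.3506 CPM (0.34, SE 0.451, adjusted p = 0.593). Fat body markers summed to 153200 and 132500 CPM in these libraries, above the 50520 and 50030 CPM of young fat body, while oenocyte markers were at 43720 and 46440 CPM. Their part in the fall of Hsp22 was not tested.

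Set directly against each other, old and Lam-RNAi fat body differed at Hsp22 by 4.70 (SE 0.281, adjusted p = 0.000795), a 26.03-fold higher level in old. Hsp27 was lower in old fat body (-0.81, SE 0.194, adjusted p = 0.0388), a call lost without old replicate 3 or either Lam-RNAi library (adjusted p 0.13 to 0.292) and when libraries were scaled by their totals (-0.54, adjusted p = 0.0882). Of all genes 14.7% were called, 5.65% higher and 9.09% lower in old. The other 5 loci were not called, among them Hsp23 (2.03, SE 0.598, adjusted p = 0.0679), which passed without old replicate 2 (2.44, adjusted p = 0.00169). Old and Lam-RNAi fat body are both compared with the same 2 young libraries above, so those results are not independent of each other.

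Old against young midgut asks the same of the intestine between 5 and 50 days. Here 6 of the 7 loci fell, all but Hsp67Ba, and 0 rose, beside 53.7% of all genes called, 25% higher and 28.7% lower. The falls of the 67B genes Hsp22, Hsp23, Hsp26 and Hsp27 were all close to 2-fold, that of l(2)efl was 2.608-fold and that of Hsp67Bc 3.935-fold. The members' median was -1.19 against 0.0147 for all genes.

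Hsp26 was at 272.0 and 240.7 CPM in young and at 114.5 and 109.1 CPM in old midgut. Hsp27 was at 156.7 and 140.3 CPM and then 74.51 and 74.25 CPM. Both old libraries lay below both young ones in each, and the replicates of the old midgut were nearly equal. The log2 fold changes were -1.26 (SE 0.0893, adjusted p = 2.67e-07) for Hsp26 and -1.06 (SE 0.0866, adjusted p = 9.26e-07) for Hsp27.

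Hsp22 went from 88.81 and 75.93 to 40.16 and 35.46 CPM, a log2 fold change of -1.19 (SE 0.105, adjusted p = 5.44e-06). Hsp23 went from 54.04 and 51.0 to 25.86 and 24.69 CPM, or -1.12 (SE 0.109, adjusted p = 1.32e-05), which was not called when all 17 libraries shared 1 fit (-1.11, adjusted p = 0.101). Their groups too were apart. Hsp67Bc, at 3.776 and 4.473 CPM in young and 1.28 and 0.9708 CPM in old midgut, changed by -1.98 (SE 0.189, adjusted p = 2.22e-06). The gene l(2)efl went from 141.1 and 140.1 to 58.08 and 54.34 CPM, or -1.38 (SE 0.0723, adjusted p = 9.39e-09), the lowest p of the members. Hsp67Ba (0.3513 and 0.3037 against 0.6246 and 0.281 CPM) overlapped between the groups, and its value of 0.23 (95% interval -0.749 to 1.207) was not called.

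The midgut of Lam-RNAi flies had the same 6 loci lower than young midgut, with 55.4% of all genes called, 25.5% higher and 29.9% lower. Hsp22 was at 39.9 and 37.5 CPM (-1.24, SE 0.105, adjusted p = 3.67e-06) and Hsp23 at 24.18 and 18.97 CPM (-1.44, SE 0.110, adjusted p = 1.96e-06). Hsp26 was at 122.8 and 122.0 CPM (-1.22, SE 0.0889, adjusted p = 3.56e-07) and Hsp27 at 75.36 and 73.66 CPM (-1.15, SE 0.0865, adjusted p = 4.74e-07). In all 4 the Lam-RNAi libraries lay below both young ones. Hsp67Bc was at 1.216 and 1.114 CPM (-1.97, SE 0.184, adjusted p = 1.79e-06) and l(2)efl at 84.59 and 91.05 CPM (-0.83, SE 0.0709, adjusted p = 8.52e-07). Hsp67Ba, at 0.3922 and 0.399 CPM, was not called (0.13, adjusted p = 0.826). The members' median was -1.22 and that of all genes -0.0106.

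The same young midgut libraries serve both comparisons, and they also held more fat body, muscle, oenocyte and hemocyte markers than the old or Lam-RNAi midgut. Hindgut and crop markers went the other way. They summed to 109.4 and 124.0 CPM in young, 159.3 and 140.6 CPM in old and 184.1 and 191.4 CPM in Lam-RNAi midgut. Of these 5 markers 3 were called higher in old and 4 in Lam-RNAi midgut, and 0 lower. Fat body markers summed to 6180 and 7561 CPM in young midgut, 1598 and 1700 CPM in old and 1427 and 1426 CPM in Lam-RNAi midgut, and 11 of the 12 tested were lower in each of the latter. Muscle markers summed to 6306 and 6840 CPM in young, 2663 and 2360 CPM in old and 3484 and 3647 CPM in Lam-RNAi midgut, oenocyte markers to 2905 and 3681, 524.3 and 502.7, and 440.6 and 415.6 CPM, and hemocyte markers to 93.64 and 125.4, 15.15 and 12.42, and 25.85 and 29.94 CPM. Young fat body itself held less Hsp26 (69.17 and 68.92 CPM), Hsp27 (27.44 and 25.77), Hsp67Bc (0.4793 and 0.3015) and l(2)efl (107.6 and 102.9) than young midgut. Hsp22 was higher there (156.9 and 159.3 against 88.81 and 75.93 CPM in young midgut). Hsp23 (45.27 and 36.66 against 54.04 and 51.0 CPM) was not called between the 2 (-0.82, SE 0.478, adjusted p = 0.146). The part of muscle and of the other tissues was not tested.

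Old and Lam-RNAi midgut differed from each other at 2 loci, with 36% of all genes called, 17.1% higher and 18.9% lower in old. The gene l(2)efl was lower in old midgut (-0.56, SE 0.0714, adjusted p = 0.000237), and its libraries did not overlap. Hsp23 was higher in old midgut (0.32, SE 0.110, adjusted p = 0.0461), a call lost without old replicate 1, old replicate 2 or Lam-RNAi replicate 2 (adjusted p 0.111 to 0.33). For Hsp22 (0.05, 95% interval -0.183 to 0.285), Hsp26 (-0.04, -0.236 to 0.151) and Hsp27 (0.09, -0.101 to 0.276) the intervals exclude a 2-fold difference between the 2 groups.

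Old against young whole gut compares 40 with 5 days. Of the 7 loci 6 rose and l(2)efl fell, with 43.6% of all genes called, 20.1% higher and 23.4% lower. The rise was 5.73-fold for Hsp23, 3.241-fold for Hsp67Ba, 2.778-fold for Hsp26, 2.18-fold for Hsp22, 1.898-fold for Hsp27 and 1.509-fold for Hsp67Bc. The members' median log2 fold change was 1.12 against 0.0237 for all genes.

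Hsp23 was at 34.62 and 42.58 CPM at 5 days and at 304.4 and 319.0 CPM at 40 days, with a log2 fold change of 2.52 (SE 0.0799, adjusted p = 3.35e-11). Hsp26 went from 137.0 and 144.7 to 534.8 and 569.3 CPM, or 1.47 (SE 0.0547, adjusted p = 1.61e-10). Both old libraries stood well above the young, with little spread inside a group. Hsp22 went from 74.73 and 74.6 to 224.7 and 234.8 CPM (1.12, SE 0.0572, adjusted p = 3.47e-09) and Hsp27 from 93.02 and 102.0 to 254.7 and 267.5 CPM (0.92, SE 0.059, adjusted p = 3.17e-08).

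Hsp67Bc rose from 12.66 and 14.41 to 28.05 and 29.54 CPM (0.59, SE 0.110, adjusted p = 0.000659). Hsp67Ba rose from 0.3854 and 0.2845 to 1.449 and 1.644 CPM (1.70, SE 0.542, adjusted p = 0.0227), and this call was lost without either old library (adjusted p 0.207 and 0.313). The gene l(2)efl went the other way, from 130.2 and 125.6 to 97.2 and 98.52 CPM, with a log2 fold change of -0.88 (SE 0.0597, adjusted p = 5.46e-08). No member's groups overlapped in CPM, but the share of all genes without overlap was not counted. Scaling by total counts alone moved the median of all genes by 0.497 and the share of higher genes among those called from 46.3 to 87.9%, but it left l(2)efl lower (-0.39) and the other 6 higher. Markers of several tissues were called lower at 40 days. Midgut markers went from 51340 to 54640 CPM at 5 days to 32920 to 33240 CPM at 40 days (10 of 14 tested lower, 3 higher), and fat body markers from 5424 to 5695 CPM to 3477 to 3750 CPM (10 of 12 lower, 1 higher). Oenocyte markers (877.7 to 888.7 against 428.9 to 432.5 CPM, 5 of 5 lower) and hemocyte markers (52.79 to 56.91 against 17.79 to 20.89 CPM, 4 of 6 lower) were lower as well. Muscle markers summed to 4975 to 5195 CPM at both ages, but 13 of 18 were called lower after the correction for composition. Of 9 Malpighian tubule markers (2334 to 2367 against 2240 to 2308 CPM) 6 were lower and 2 higher. Trachea (24.12 to 24.57 against 32.54 to 35.03 CPM) and hindgut and crop markers (141.1 to 160.2 against 184.3 to 187.6 CPM) summed higher at 40 days. Of these, 0 of 5 and 1 of 5 were called lower, and 0 higher. The part of these in the results was not tested.

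**Figure D3:**
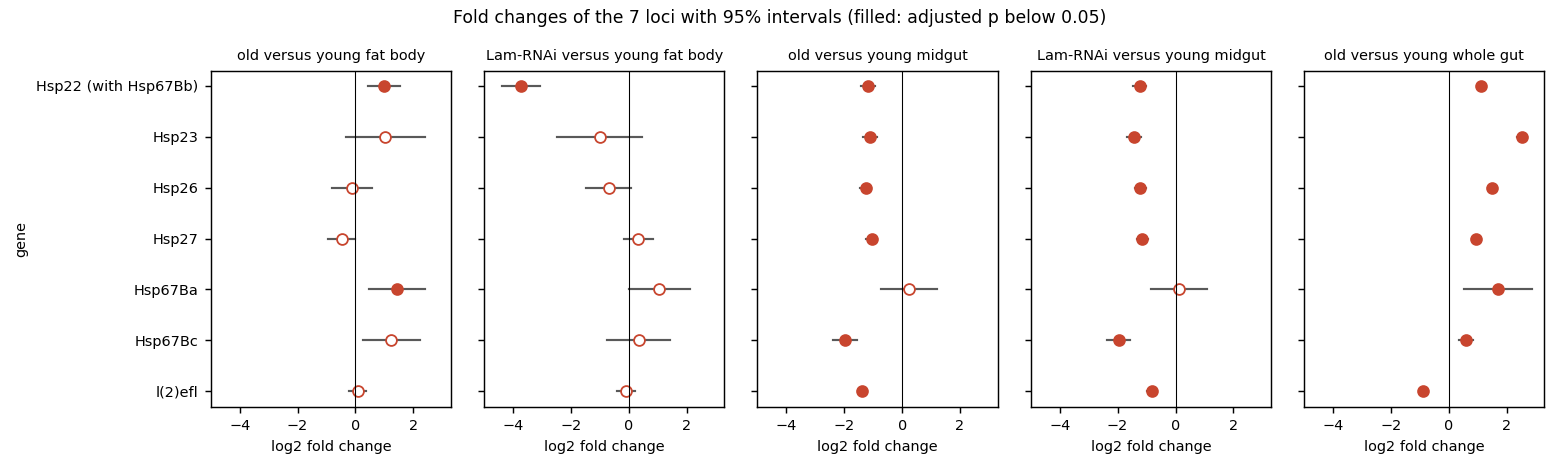
Log2 fold change (x axis) with its 95% interval for each of the 7 loci (y axis) in the 5 comparisons with young samples; filled points have an adjusted p below 0.05. Hsp22 stands at 0.98 (old fat body) and -3.72 (Lam-RNAi fat body), 6 loci lie between -1.98 and -0.83 in both midgut panels, and in whole gut l(2)efl alone lies below 0.

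The differences between tissues were tested in 1 fit of all libraries. The effect of age was more positive in fat body than in midgut at 5 of 7 loci, Hsp22, Hsp23, Hsp26, Hsp67Bc and l(2)efl, by 1.08 to 3.18 on the log2 scale, beside 44.3% of all genes called, 23.8% more positive and 20.4% less so. Hsp27 (0.54, SE 0.223, adjusted p = 0.0651) and Hsp67Ba (1.08, SE 0.612, adjusted p = 0.174) were not called. Hsp27 was called with DESeq2 (0.67, adjusted p = 0.0124), with its size factors in edgeR (adjusted p = 0.0256) and with total counts (adjusted p = 0.0456). It was also called without old fat body replicate 2 (0.68, adjusted p = 0.00239). The call of Hsp23 was lost without young fat body replicate 2 (1.96). The differences at Hsp23 and Hsp26 (2.09 and 1.08) were lost together when young midgut replicate 1 or either old midgut library was left out, which brought the count to 3. The effect of age was also more positive in whole gut than in midgut, at 6 of 7 loci, beside 30% of all genes called, 17.6% more positive and 12.5% less so. It was largest for Hsp23 (3.65, SE 0.691, adjusted p = 0.00209) and smallest for l(2)efl (0.51, SE 0.144, adjusted p = 0.0166), where the call was lost without young midgut replicate 1, old midgut replicate 2 or old whole gut replicate 2. The ages compared differ, 50 days in midgut and 40 days in whole gut, so the age and the tissue dissected cannot be told apart.

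For Lam RNAi Hsp22 fell further in fat body than in midgut, with a difference of -2.53 (SE 0.280, adjusted p = 1.06e-05). Hsp27 (1.43, SE 0.232, adjusted p = 0.000253), Hsp67Bc (2.27, SE 0.376, adjusted p = 0.000298) and l(2)efl (0.67, SE 0.143, adjusted p = 0.0019) went the other way, with the effect more negative in midgut. Of all genes 46.7% were called, 24.1% with a more positive and 22.5% with a more negative effect in fat body.

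Young tissues differed at the start. In young fat body Hsp27 was 7.71-fold (-2.95, SE 0.175, adjusted p = 5.14e-09), Hsp26 5.128-fold (-2.36, SE 0.252, adjusted p = 2.41e-06), Hsp67Bc 15.02-fold (-3.91, SE 0.255, adjusted p = 1.35e-08) and l(2)efl 1.84-fold (-0.88, SE 0.102, adjusted p = 4.47e-06) lower than in young midgut. Hsp22 was 1.389-fold higher (0.47, SE 0.193, adjusted p = 0.043), a call lost without either young fat body library or young midgut replicate 2 (adjusted p 0.0504 to 0.156). Of all genes 69.3% were called, 34.3% higher and 35% lower in fat body. Young whole gut differed from young midgut only at Hsp67Bc, 3.932-fold higher (1.98, SE 0.194, adjusted p = 3.53e-06), beside 42.2% of all genes called, 19.3% higher and 22.8% lower, and Hsp26 (-0.61, SE 0.240, adjusted p = 0.0581) lay just short of the threshold. Malpighian tubule markers summed to 2334 and 2367 CPM in young whole gut against 435.3 and 500.7 CPM in young midgut, with 7 of 9 higher and 2 lower. Oenocyte (4 of 5), trachea (5 of 6) and hemocyte markers (4 of 8, with 2 higher) were lower in whole gut. Their part in the level of Hsp67Bc was not tested.

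Along the 67B cluster the members did not move as a block in fat body. In Lam-RNAi fat body Hsp22 fell by 3.72 on the log2 scale between Hsp67Bc (0.34) and CG4461 (-0.54, SE 0.459, adjusted p = 0.396), whose changes were not called, and in old fat body the 67B genes ranged from -0.48 to 1.44. In old midgut CG4461 (1.142 and 1.243 against 0.3747 and 0.4598 CPM) fell too, by a log2 fold change of -1.51 (SE 0.327, adjusted p = 0.00194). Hsp67Ba alone among the 7 separately counted alpha-crystallin loci of the cluster was thus not called, beside 53.7% of all genes called, 28.7% lower. CG4461 was also lower in Lam-RNAi midgut (-1.50, SE 0.32, adjusted p = 0.001585), where Hsp67Ba was again not called, beside 29.9% of all genes lower. The nearest neighbours outside, Fdxh on the left and CG4080 on the right, were at 0.22 (adjusted p = 0.123) and -0.29 (adjusted p = 0.0251) in old midgut. In fat body Fdxh was not called with age (0.42) or Lam RNAi (-0.31), and CG4080 rose in both (1.22 and 1.13). In whole gut CG4461 (-0.19, adjusted p = 0.757) was not called, while the other 6 loci of the cluster rose, beside 20.1% of all genes. Of the neighbours, CG4080 rose there too (0.36, adjusted p = 0.0015) and Fdxh was not called (-0.0156, adjusted p = 0.957).

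**Figure D4:**
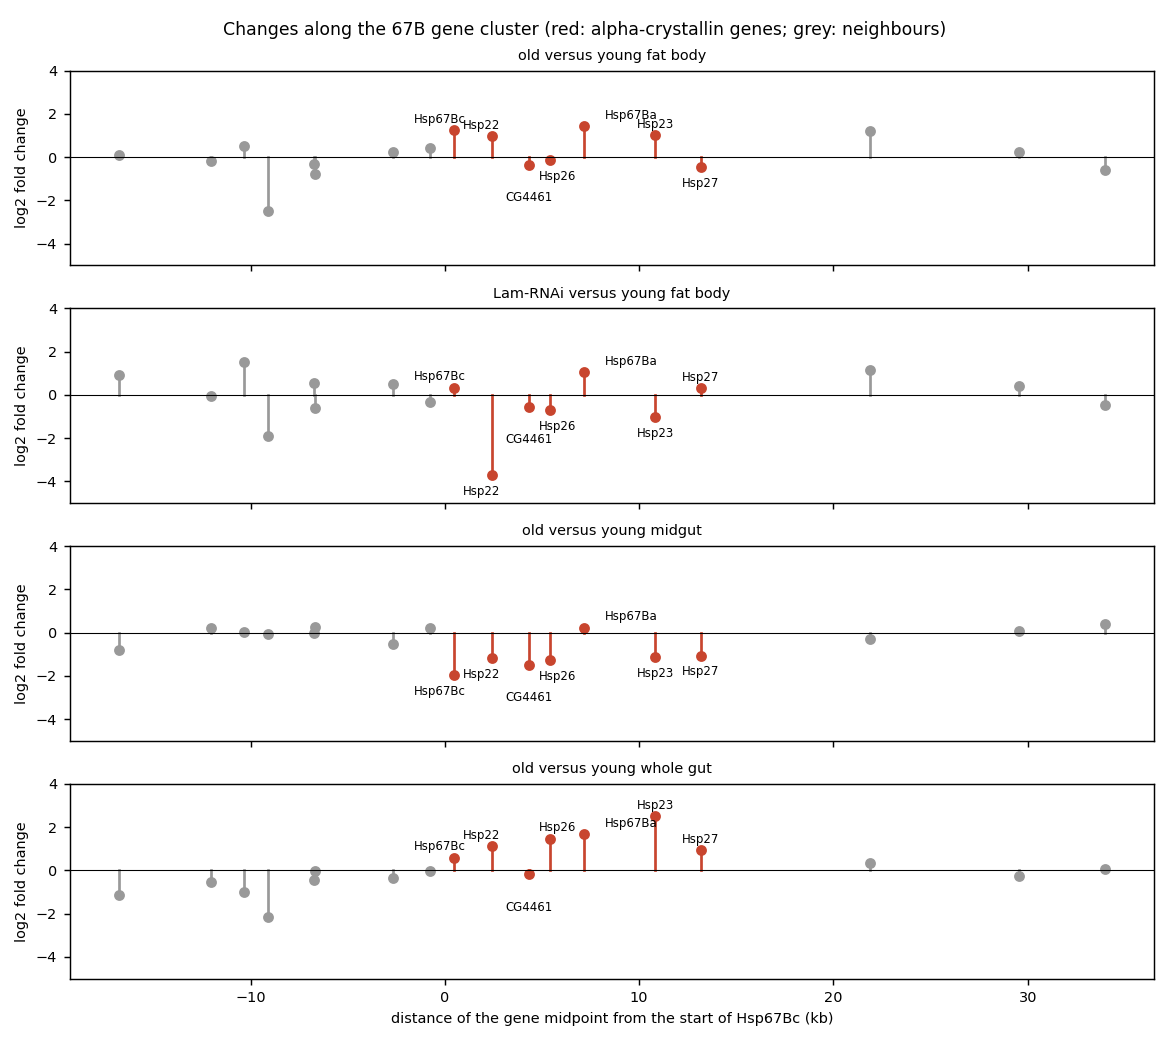
Log2 fold change of each gene against the distance of its midpoint from the start of Hsp67Bc (kb) in 4 comparisons; red marks the alpha-crystallin loci of the cluster and grey their neighbours. Hsp22 at -3.72 stands alone in Lam-RNAi fat body. In the old midgut panel all red loci except Hsp67Ba lie below -1.

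The other alpha-crystallin genes outside the cluster were read in the same way. CG7409, whose function in the fly is little described, was at 75.34 and 76.6 CPM in young fat body and fell with age (-1.80, SE 0.249, adjusted p = 0.00214) and with Lam RNAi (-0.95, SE 0.277, adjusted p = 0.0367). It was nearly absent from all gut libraries except those of young midgut, which held 3.103 and 3.783 CPM. Young whole gut held 0.02964 and 0 CPM. Fat body markers summed to 6180 and 7561 CPM in young midgut and to 5695 and 5424 CPM in young whole gut. Oenocyte markers summed to 2905 and 3681 CPM and to 888.7 and 877.7 CPM. The part of these tissues in the level of CG7409 was not tested. CG14207, listed as HspB8 in the tables after its mammalian relative, rose in old (0.70, SE 0.156, adjusted p = 0.0139) and Lam-RNAi fat body (0.60, SE 0.168, adjusted p = 0.033) from 126.1 and 130.6 CPM to 270.1, 177.0 and 219.6 CPM and to 172.9 and 171.9 CPM. CG13133 fell in old fat body (-1.51, SE 0.430, adjusted p = 0.0329) from 1.049 and 1.295 CPM.

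Of the larger chaperones and their partners, 28 were listed and 21 were tested. In old fat body 0 rose and 9 fell, beside 19.1% of all genes higher and 19% lower, with a list median of -0.354. The 4 with the lowest p were Hsc70-3, the endoplasmic reticulum Hsp70 known as BiP (-2.28), the cognate Hsp70 gene Hsc70-2 (-2.28), Hop, which bridges Hsp70 and Hsp90 (-0.85), and Hsp70Ba (-4.56). In Lam-RNAi fat body 0 rose and 9 fell, beside 18.5% of all genes higher and 17.1% lower, with a list median of -0.55. The falls were led by Hsc70-3 (-1.98), the mitochondrial chaperonin Hsp60 (-0.94), Hop (-0.77) and Hsc70-2 (-1.30). Hsp60 went from 415.5 ± 3.78 to 192.6 ± 7.56 CPM (n = 2 each).

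In midgut the chaperone list was split. With age 5 rose and 8 fell, beside 25% of all genes higher and 28.7% lower. The changes were led by Hsp70Ba (-6.21), Hsc70-2 (-1.91), Hsp70Ab (-1.64) and Hop (0.56). With Lam RNAi 6 rose and 8 fell, beside 25.5% of all genes higher and 29.9% lower. Here Hsp70Ba (-6.06), the endoplasmic reticulum Hsp90 Gp93 (-1.15), Hsp70Ab (-1.60) and Hsp83 (0.82) led. Hsp83, the cytosolic Hsp90 of the fly, went from 686.2 ± 20.6 CPM in young midgut to 1215 ± 45.5 CPM in old and 1348 ± 2.79 CPM in Lam-RNAi midgut. Hsp68 of the same list went the other way, from 154.4 ± 21.8 CPM in young to 58.49 ± 6.90 CPM in old and 80.36 ± 2.075 CPM in Lam-RNAi midgut. The list medians were 0.0699 and 0.0894. The Hsp70A and Hsp70B genes are near-identical copies, so their single values are uncertain.

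In old whole gut 15 of the 21 rose and 2 fell, beside 20.1% of all genes higher and 23.4% lower, with a list median of 0.547. Hsp83 rose from 496.2 ± 22.2 to 2608 ± 50.3 CPM (1.90, SE 0.0499, adjusted p = 5.29e-12). Hsp68, a heat-inducible Hsp70 relative, rose from 144.8 ± 0.297 to 589.7 ± 25.6 CPM (1.53, SE 0.0534, adjusted p = 8.67e-11). The Hsp40 gene DnaJ-1 rose by 0.82 and stv, the starvin partner of Hsp67Bc, by 0.77 on the log2 scale. Hsf, the heat shock factor itself, came to -0.22 (SE 0.0776, adjusted p = 0.0333), but its direction turns without the correction for composition, with 44.22 ± 1.39 CPM at 5 and 53.46 ± 1.09 CPM at 40 days.

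The FOXO, JNK and ecdysone list had 13 genes, all tested. In old fat body 3 rose and 3 fell, among them the JNK target Jra, the fly Jun (1.01, SE 0.131, adjusted p = 0.00168), and puc, the JNK phosphatase and target (1.48, SE 0.211, adjusted p = 0.00247), and in Lam-RNAi fat body 2 rose and 2 fell, with the ecdysone receptor partner usp at -0.36 and Jra at 0.48. In old midgut 4 rose and 4 fell, led by puc (0.48) and the ecdysone-induced factor br (1.42), and in Lam-RNAi midgut 5 rose and 2 fell, led by foxo (0.82, SE 0.0894, adjusted p = 1.29e-05) and Eip75B (0.58). In whole gut 5 rose and 4 fell, led by kay, the fly Fos (0.79), and foxo (-0.58). The medians lay between -0.202 and 0.167. Of all genes 38.1%, 35.7%, 53.7%, 55.4% and 43.6% were called in these comparisons, in the same order.

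**Figure D5:**
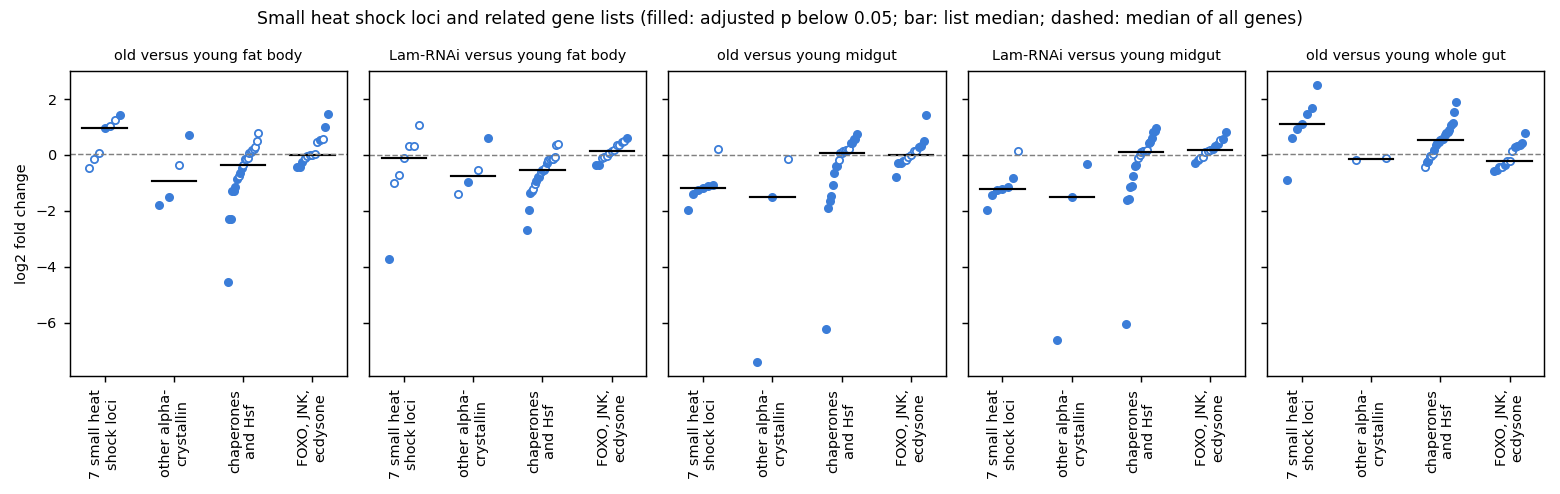
Log2 fold changes of the 7 small heat shock loci, the other alpha-crystallin genes, the chaperone and heat shock factor list and the FOXO, JNK and ecdysone list in the 5 comparisons with young samples; filled points have an adjusted p below 0.05, bars are list medians and dashed lines the median of all genes. The small heat shock medians are 0.977, -0.11, -1.19, -1.22 and 1.12 from left to right, and the chaperone medians -0.354, -0.55, 0.0699, 0.0894 and 0.547.

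Genes whose level followed each member most closely over the 8 group means were sought among 7049 loci, by Pearson's r of log2(CPM + 1), whose mean over the groups had to reach 3. The points share libraries and depth, and r is given as a description. For Hsp22 they were CG2076 (r = 0.941), CG11055 (0.919) and CG7694 (0.919). For Hsp23 they were CG31469 (0.956), CG8668 (0.951) and CG33995 (0.949), for Hsp26 CG11537 (0.976), Osbp (0.973) and flr (0.97), and for Hsp27 CG5550 (0.987), CG2064 (0.966) and CG42335 (0.964). Hsp67Bc was followed by CG7720 (0.983), CG3290 (0.972) and CG33090 (0.971), and l(2)efl by Cyp28a5 (0.928), CG3835 (0.89) and sty (0.847). CG2076 ran from 63.67 CPM in Lam-RNAi to 208.6 CPM in old fat body, a narrower range than that of Hsp22.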

How the data were processed

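Poly-A RNA was extracted with a PicoPure kit and made into libraries with a TruSeq version 2 kit, per the labels' protocols. Each deposited table gives raw counts of reads, 1 value per gene. CASAVA 1.8, TopHat2 and edgeR are listed, with no role stated, per the submitters' processing notes. The genome build, the counting tool, its strand setting and its treatment of multiply placed reads are not given in the sources used here. Since the tables use release 5 names for heterochromatic and unplaced sequence, the release 6 annotation (BDGP6.54) served only for names, exon lengths and protein lengths, and overlapping genes are uncertain.

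Entries at 1 position with equal counts were merged (14095 loci of 15080 entries, 29 positions with unequal counts left apart). Depth was 31637135 to 78289614 counts per library, and intervals of counts cover counting error only. Samples were grouped as labelled. Tests were run in edgeR 4.0.16 (R 4.3.3) with TMM scaling, its default count filter and robust quasi-likelihood, and p was adjusted by Benjamini-Hochberg. Comparisons inside a tissue came from that tissue's libraries (7 of fat body, 6 of midgut, 4 of whole gut) and the rest from all 17. The fits held 10866, 10220, 9773 and 11128 genes and were tested on simulated data. Each SE was obtained by dividing the log2 change by the root of its F. Alternatives were DESeq2 1.42.0 and its size factors, scaling by total counts, no count filter, a replicate block, other sets of libraries and each library left out. Tables were handled in pandas 2.3.3 with numpy 2.4.6 (Python 3.11.15) and plotted in matplotlib 3.10.9.

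The members, gene lists (155 entries, 8 unmatched, 11 matched by synonym), tests and alternatives were chosen with earlier results of these data known. All members and other alpha-crystallin genes are named, with up to 4 chaperones and 2 regulators by smallest p in each comparison with young samples, and the 3 loci most like each member that has a mean of at least 1 CPM. Fdxh, CG4080, Hsf, further values of Hsp83 and the midgut values of Hsp68 were named after their values were seen. No sequences were printed.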

Additional observations from a re-analysis of the deposited data

Results flagged for a closer look

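Differences of an effect between tissues that passed edgeR's test of the difference itself (adjusted p below 0.05, 17 libraries in 1 fit) are listed here, all on the log2 scale and with Hsp67Bb sharing its reads with Hsp22. For age, the effect in fat body minus that in midgut was 2.12 for Hsp22 and 2.12 for Hsp67Bb, 2.09 for Hsp23, 1.08 for Hsp26, 3.18 for Hsp67Bc and 1.41 for l(2)efl. For Lam RNAi, the effect in fat body minus that in midgut was -2.53 for Hsp22 and -2.52 for Hsp67Bb, 1.43 for Hsp27, 2.27 for Hsp67Bc and 0.67 for l(2)efl. The effect of age in whole gut minus that in midgut was 2.33 for Hsp22 and 2.33 for Hsp67Bb, 3.65 for Hsp23, 2.75 for Hsp26, 2 for Hsp27, 2.57 for Hsp67Bc and 0.51 for l(2)efl. The young midgut libraries enter each difference, since the midgut effect that is subtracted is measured against them. They held more fat body, muscle, oenocyte and hemocyte markers than the other midgut libraries, and the part of that in these values was not tested.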

How the results depend on the processing

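Of 1104 values of single genes under alternative settings, 1013 kept their direction and side of the threshold, 44 lost a call, 30 gained 1 and 17 changed sign. With any library left out, the 6 loci stayed lower in both comparisons with young midgut, and Hsp22 stayed lower in Lam-RNAi fat body. In whole gut 6 loci stayed higher and l(2)efl lower. A whole gut group then held 1 library. For Hsp22, Hsp23, Hsp26, Hsp27 and l(2)efl the adjusted p was then lower than with all libraries, so these fits cannot support the whole gut calls. That of Hsp67Ba was lost without either old library. Fat body calls with age rest on 5 libraries and depend on single ones.

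Same-numbered libraries of the same tissue deviated with correlations of -0.223 to 0.000937, which gave no sign that the numbers pair them. This cannot exclude joint collection, and same-numbered libraries of different tissues were not compared. With replicate number as a block, calls fell from 4141 to 1707 genes and from 2 to 0 loci in old against young fat body, from 3875 to 2036 genes in Lam-RNAi against young fat body, and, for old against Lam-RNAi fat body, from 1602 to 66 genes and 2 to 1 loci. With all 17 libraries in the fit these comparisons gave 4, 2 and 4 loci, with 3199 genes in the last, and old against Lam-RNAi midgut 1428 of 3678 genes and 1 locus. Fitting only the compared groups gave 6603 genes and 4 loci in Lam-RNAi against young fat body, 868 genes and 1 locus for old against Lam-RNAi fat body, and 3 loci in young whole gut against young midgut. Scaling by total counts alone gave 3155 genes for old against Lam-RNAi fat body, 6933 in place of 4257 in whole gut, 1 locus in old against Lam-RNAi midgut and 3 in young whole gut against young midgut, and DESeq2 gave 2566 genes, 1 locus and 2 loci for old against Lam-RNAi fat body, old against Lam-RNAi midgut and young whole gut against young midgut. The cause was not tested.

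Leaving out 1 library gave 1960 to 5198 genes and 0 to 4 loci in old against young fat body, 1824 to 2057 genes in Lam-RNAi against young fat body, 205 to 3542 genes and 1 to 4 loci for old against Lam-RNAi fat body, 1493 to 3073 genes and 1 to 2 loci in old against Lam-RNAi midgut, and 3 to 6 loci in the difference of age effects between fat body and midgut.

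The changes of sign were all of values that were not called. Leaving out 1 library gave -0.43 to 0.11 for Hsp26 and -0.0279 to 0.14 for l(2)efl in old against young fat body, and -0.0064 to 0.91 for Hsp67Ba for old against Lam-RNAi fat body. Hsp67Ba ranged from -0.18 to 0.84 in old against young midgut, from -0.0341 to 0.30 in Lam-RNAi against young midgut and from -0.35 to 0.71 in old against Lam-RNAi midgut, where Hsp67Bc ranged from -0.12 to 0.19. In young whole gut against young midgut the range was -0.0758 to 0.30 for Hsp22 and -0.0761 to 0.30 for Hsp67Bb. Scaling by total counts gave Hsp67Ba 0.0147 in young fat body against young midgut, Hsp22 and Hsp67Bb -0.0369 and Hsp27 -0.0025 in old against Lam-RNAi midgut, and Hsp22, Hsp67Bb and l(2)efl each -0.14 in young whole gut against young midgut.

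Total counts moved the median of all genes by -0.174 and the share of higher calls from 52 to 34.9% in Lam-RNAi against young fat body, by 0.259 (38.3 to 81.7%) for old against Lam-RNAi fat body, by 0.144 (46 to 61.4%) in Lam-RNAi against young midgut, by 0.457 (49.5 to 68.1%) in young fat body and by -0.26 (45.8 to 22.1%) in young whole gut against young midgut. Old against Lam-RNAi midgut went from 47.4 to 27.8%. For differences of effects the median moved by -0.271 (51.7 to 35%, Lam RNAi) and 0.428 (58.5 to 88.7%, age, whole gut), and with DESeq2 size factors by 0.127 (53.8 to 64.5%) and 0.178 (51.7 to 64%) for age and Lam RNAi in fat body and midgut. Depth limits Hsp67Bc in fat body, and Hsp67Ba in fat body, midgut and young whole gut, at about 1 CPM or less. Hsp67Ba had 13 and 9 reads in young and 53 and 56 reads in old whole gut.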
